A study of Mus musculus with 6 samples.

Results

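The genes described here are 39 mouse genes that copy DNA or supply the nucleotides for it, taken by symbol from the mRNA table, in which all 39 of 39 were found among 22127 listed genes. They comprise 10 genes of origin licensing, 4 of helicase activation, 6 of polymerases and primase, 7 of the sliding clamp, its loader and Okazaki fragment maturation, 2 subunits of the single-strand binding protein RPA, 4 of deoxynucleotide supply, 4 E2F and cyclin E genes and 2 subunits of chromatin assembly factor 1. The cells were GC-2 spd(ts), a mouse line derived from spermatocytes, which are germ cells in meiosis, and immortalised with a viral large T antigen together with a temperature-sensitive p53. Control cells were held without serum for 12 h and then grown for 48 h at 0 µM bisphenol A (BPA, a monomer of polycarbonate plastic) in medium with 10% serum and 0.1% dimethyl sulfoxide. Exposed cells had the same 12 h without serum and then 48 h in complete medium with 120 µM BPA that had been dissolved in dimethyl sulfoxide. Aliquots of each group's RNA gave an mRNA, a small RNA and a circular RNA library, and each library was the only 1 of its kind in its group, so the study compared 1 exposed with 1 control sample and no difference has a replicate check.

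In a dividing cell the origin recognition complex, CDC6 and CDT1 load the MCM2 to MCM7 helicase onto DNA in G1, and CDC45 and the GINS complex turn it on when S phase begins. DNA polymerase alpha with its primase starts each strand, polymerases delta and epsilon extend it, the PCNA clamp holds them on the template, and FEN1 and LIG1 process and join Okazaki fragments. Most of these genes are classic targets of the E2F transcription factors, which pocket proteins such as RB hold in check. Large T antigen, with which the line was immortalised, is known to bind the pocket proteins.

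Reads summed to 32312872 in the control mRNA library and 33071378 in the BPA mRNA library, and the 39 genes together took 0.676% and 0.722% of them. Each of the 39 genes had between 1202 and 37562 reads in both libraries together, so a gene's 95% counting interval was at most 0.33 wide on the log2 scale. These intervals (exact, Clopper-Pearson) cover the counting error of reads only. PCR copies without molecular identifiers are not separate molecules, so the intervals can understate the counting error of molecules. With 1 library per group, they say nothing of how far cultures treated alike would differ. Of 10 markers of meiotic spermatocytes, 3 were listed in the table, with 236 control and 249 BPA reads in all, of which Prdm9 gave 227 and 249. Sycp3, a defining protein of the meiotic chromosome axis, had 6 reads in control and 0 with BPA. Of 8 germ cell markers, 4 were listed. Dnd1 had 65 and 80 reads, Kit 7 and 3, Ddx4 0 and 9, and Sohlh1 0 and 3. The labelled spermatocyte origin thus shows in few of these markers. The summed level of 8 markers of peritubular and fibroblast cells was 5812 CPM (counts scaled to library totals) in control and 3139 with BPA, with all 8 listed and Myh11 at 0 reads in control and 9 with BPA, and its part in the ratios below was not tested. In such bulk RNA, fewer cells in S phase and less RNA per cell cannot be told apart.

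As a whole the replication genes differed little between the libraries, while their parts went different ways. All ratios are BPA over control on the log2 scale, computed from the authors' normalised read counts plus 1. The median of the 39 genes was 0.08, against 0.02 over the 16870 genes with at least 10 reads in both libraries together. At least 25% higher in the BPA library were 6 of the 39, Fen1, E2f1, Pcna, Mcm10, Cdt1 and Rpa2, where 23.8% of the 16870 genes were that much higher. At least 20% lower, the same distance on the log2 scale, were 5, Tk1, Rrm1, Rpa1, Tyms and Ccne2, where 19.2% of all genes were. Among the 11366 genes with at least 200 reads, which are closer in depth to these 39, the shares were 16.7% and 13.7%. The remaining 28 genes lay within these limits. Scaling by library totals turned the 6 higher and 5 lower genes into 9 and 3, where 28.9% and 15.7% of all genes passed by that scaling. At 2-fold, Fen1 was the 1 gene higher and none was lower, where 6.88% and 4.61% of all genes passed (1.87% and 1.31% with at least 200 reads). Above 0 were 26 genes and below 0 were 13, where 51.9% and 48.1% of all genes were (50.7% and 49.3% with at least 200 reads). The counting interval lay above equality for 19 genes and below it for 12, where 28.2% and 26.5% of all genes did so (33.5% and 33.7% with at least 200 reads). Mcm7, at 0.32, fell just short of the upper limit, and Cdt1 and Rpa2, at 0.33, lay just past it. The authors' deposited table also gives p-values, from a test whose name and model no source read for this work records. With 1 library per group, genes that passed by that test are not counted here.

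**Figure D1:**
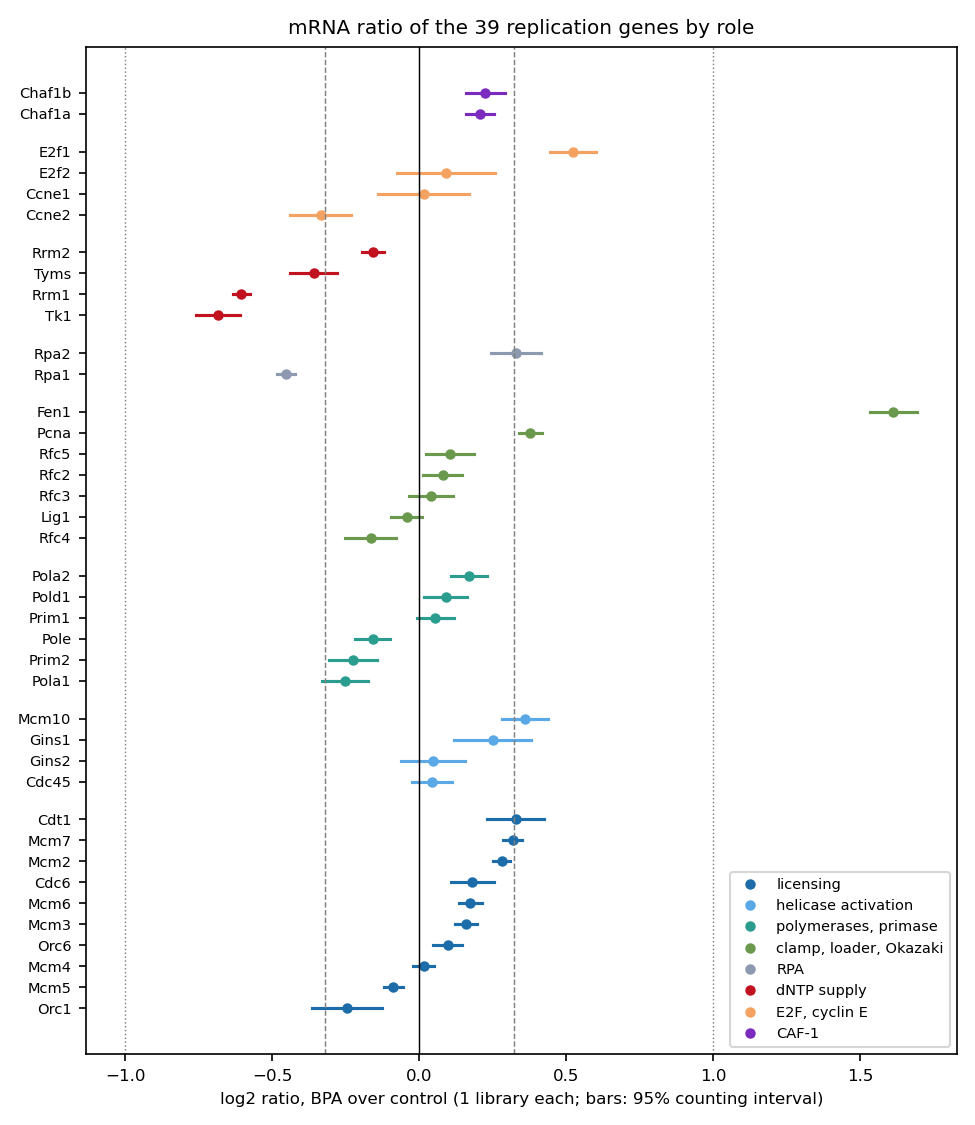
The log2 ratio of each of the 39 genes (x axis, BPA over control, 1 library each) is drawn by role, with bars for the 95% counting interval and lines at 25% higher and 20% lower (dashed) and 2-fold (dotted). Fen1 stands alone past 2-fold at 1.61, and all 4 genes of deoxynucleotide supply lie left of 0.

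The upstream sequences of these genes hold E2F-type motifs more often than those of other genes, and 5 are printed because they show an MCM pair, a chromatin assembly gene and enzymes of nucleotide supply. RefSeq promoters (GRCm38.p6) were matched by symbol for 32 of the 39 genes. Of the forms of the E2F site, the motif TTCGCGC was searched on both strands, as was the form TTGGCGC and also the form TTCCCGC. The box bound by NF-Y was searched as CCAAT. A motif can overlap another, as forms of the E2F site on opposite strands do in Mcm6. Each line gives the 250 bases before the start, 5′ to 3′ on the gene's strand, with any of these motifs in capitals, and none of the 5 windows overlaps an annotated exon.
Mcm6 (chr1:128359706-128359955, minus strand): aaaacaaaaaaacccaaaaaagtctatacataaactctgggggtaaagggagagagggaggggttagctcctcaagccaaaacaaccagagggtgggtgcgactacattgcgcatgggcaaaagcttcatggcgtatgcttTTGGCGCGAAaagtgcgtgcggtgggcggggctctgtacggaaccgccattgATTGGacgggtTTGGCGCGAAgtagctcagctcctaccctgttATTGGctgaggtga
Mcm5 (chr8:75109259-75109508, plus strand): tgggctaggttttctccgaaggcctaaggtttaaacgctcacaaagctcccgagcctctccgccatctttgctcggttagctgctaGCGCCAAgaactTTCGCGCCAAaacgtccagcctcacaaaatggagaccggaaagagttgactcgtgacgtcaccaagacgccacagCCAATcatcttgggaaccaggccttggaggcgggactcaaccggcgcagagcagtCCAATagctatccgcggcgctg
Chaf1a (chr17:56040166-56040415, plus strand): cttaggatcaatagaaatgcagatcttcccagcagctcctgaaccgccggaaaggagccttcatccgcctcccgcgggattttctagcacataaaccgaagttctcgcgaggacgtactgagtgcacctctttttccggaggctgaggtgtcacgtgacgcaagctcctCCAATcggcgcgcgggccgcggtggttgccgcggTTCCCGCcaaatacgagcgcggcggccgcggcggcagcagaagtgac
Rrm1 (chr7:102441445-102441694, plus strand): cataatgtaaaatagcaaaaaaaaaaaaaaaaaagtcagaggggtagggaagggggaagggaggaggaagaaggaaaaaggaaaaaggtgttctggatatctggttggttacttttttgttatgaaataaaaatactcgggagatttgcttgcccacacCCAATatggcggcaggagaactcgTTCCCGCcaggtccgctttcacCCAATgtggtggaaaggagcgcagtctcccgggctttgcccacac
Tyms (chr5:30073626-30073875, minus strand): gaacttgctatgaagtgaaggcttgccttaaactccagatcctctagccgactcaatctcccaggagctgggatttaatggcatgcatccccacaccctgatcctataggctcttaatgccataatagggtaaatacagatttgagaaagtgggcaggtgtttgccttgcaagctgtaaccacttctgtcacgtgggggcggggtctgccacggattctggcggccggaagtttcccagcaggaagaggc

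Within these 250 bases, 13 of 32 replication genes held at least 1 of the E2F-type motifs, or 40.6%, against 7.68% of all 27025 genes with a promoter and 16.2% of the 6636 with at least 1000 reads. With the 50 bases after the start included, the count was 19 of 32, or 59.4%, against 9.2% and 19.2%. The CCAAT box stood in 19 of 32, or 59.4%, against 37.5% and 40.7%. Some windows overlap annotated exons, among them those of E2f1, Pcna, Rpa1 and Orc1. So does the window of the Fen1 start that held its E2F-type motif. Median GC content was 59.6% in these promoters and 59.9% in those of the 10519 genes compared. Genes with and without a motif overlapped in their ratios. The 13 genes with an E2F-type motif in the 250 bases ran from -0.61 to 1.61 with a median of 0.17, and the 19 without ran from -0.68 to 0.52 with a median of 0.09. By role, the longer window of 300 bases held an E2F-type motif in 7 of 9 licensing genes, 0 of 2 of helicase activation, 3 of 4 polymerase and primase genes, 4 of 6 of the clamp group, 1 of 2 RPA genes, 1 of 4 of deoxynucleotide supply, 1 of 3 E2F and cyclin E genes and 2 of 2 of chromatin assembly factor 1. A match describes letters and is not evidence that a factor binds there.

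Licensing genes were on the whole slightly higher in the BPA library. Of 10, 8 were above 0, their median was 0.17, and the extremes were Cdt1 at 0.33 and Orc1 at -0.24. Mcm7 reads numbered 12226 in control and 16460 with BPA, which is a log2 ratio of 0.32 (95% interval 0.28 to 0.35). Mcm2 had 15767 and 20684 reads, at a log2 ratio of 0.28 (0.25 to 0.31). These are subunits of a ring that contains each of MCM2 to MCM7 once, yet the ratios of the 6 genes spread over 0.41 on the log2 scale. Mcm6 was at 0.17, Mcm3 at 0.16 and Mcm4 at 0.01, and Mcm5, with 15174 and 15421 reads, was the 1 subunit below 0 at -0.09 (-0.12 to -0.06). The reads of Mcm7 per read of Mcm5 went from 0.806 in control to 1.07 with BPA, a quantity that no scaling of the libraries can alter.

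Levels per length depend on the length used. With all exons of a gene as its length, the 6 MCM genes ran in control from 62.1 RPKM (reads per kb of exon, scaled to library totals) for Mcm6 to 118 for Mcm5, a 1.89-fold range, and with BPA from 74.0 for Mcm6 to 117 for Mcm5, a 1.58-fold range. With the longest transcript as length, Mcm2 was the highest and the range was 2.10-fold in control and 2.26-fold with BPA, so whether the range narrowed or widened turned on that choice. Because RPKM uses library totals, differences between these levels are 0.08 higher on the log2 scale than the ratios. The loaders were scarcer per length, Cdt1 at 14.9 and 19.8 RPKM and Cdc6 at 16.7 and 19.9. Cdt1, which brings the helicase to the origin, had 1512 and 2051 reads (0.33, 0.23 to 0.43), and Cdc6, the ATPase that works with it, had 2816 and 3449 (0.18, 0.11 to 0.25). Gmnn, the geminin that blocks CDT1 outside G1, was on the same side at 0.27, and the reads of Cdt1 per read of Gmnn were 1.05 and 1.09, a log2 change of 0.06 whose interval of -0.08 to 0.20 includes none. The origin recognition subunits parted, with Orc1 at 1222 and 1114 reads (-0.24, -0.36 to -0.13) and Orc6 at 5966 and 6893 (0.10, 0.05 to 0.15). A region of 171 bases of the Orc6 exons is shared with Vps35 on the opposite strand, which had 28824 and 29370 reads.

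Of 18 further licensing and firing factors, 3 were at least 25% higher, or 5 by library totals, none was at least 20% lower and the median was 0.07. The highest was Recql4, a helicase needed for origin firing, with 2154 and 3453 reads, and its log2 ratio was 0.57 (0.49 to 0.65). It was followed by Mtbp, a partner of the firing factor TICRR, at 0.43 and the GINS subunit Gins4 at 0.40. The lowest was Cdc7, the kinase that phosphorylates the MCM ring, at -0.27 (-0.41 to -0.13), while its activator Dbf4 was at -0.02. Counts in this list, the wider lists below and the mitosis genes stand beside the same shares of all genes. Of all genes, 23.8% were at least 25% higher and 19.2% at least 20% lower. Those shares were 16.7% and 13.7% with at least 200 reads, and 28.9% and 15.7% by library totals.

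The 4 genes of helicase activation were all above 0, with a median of 0.15. Mcm10, which is needed to start unwinding, had 2277 and 3155 reads and was highest at 0.36 (0.28 to 0.44). Gins1 had 847 and 1088 reads, at a log2 ratio of 0.25 (0.12 to 0.38). The intervals of Gins2 at 0.05 (-0.06 to 0.15) and Cdc45 at 0.04 (-0.02 to 0.11) included equality. Of the Gins2 exon length, 67.3% is shared with the oppositely oriented gene Gse1, which had 428 and 359 reads.

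Polymerase and primase genes split evenly, 3 above and 3 below 0, none past the limits of 25% higher or 20% lower, with a median of -0.05 that became 0.027 by library totals. The split ran inside complexes. Pola2, the B subunit of polymerase alpha, had 3986 and 4839 reads, and its log2 ratio was 0.17 (0.11 to 0.23), whereas Pola1, its catalytic subunit, had 2702 and 2451 and -0.25 (-0.33 to -0.17). The small primase subunit Prim1 was at 0.06 and the large subunit Prim2 at -0.23, from 2519 and 2328 reads. Between the leading and lagging strand enzymes, Pole was at -0.16 (-0.22 to -0.10) and Pold1 at 0.09 (0.02 to 0.16). In RPKM, Pola1 was the least abundant of the polymerase alpha and primase genes by either length, at 9.49 and 8.41 over all exons. The most abundant was Prim1 over all exons, at 29.9 and 32.7, and Pola2 over the longest transcript, at 42.9 and 50.8.

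The clamp and Okazaki group held the gene that differed most. Fen1, the flap endonuclease that removes the RNA-primed end of Okazaki fragments (ENSMUSG00000024742, chromosome 19, 10199132 to 10204169, minus strand, GRCm38 with GENCODE M21 as for all genes here), had 1595 reads in control and 5274 with BPA. Its ratio was 1.61 (1.53 to 1.70), and its level per length went from 20.4 to 65.8 RPKM. Fen1 shares 78.8% of its exon length with Gm10143, an antisense transcript that had 124 and 191 reads, and 5.37% with Tmem258 on the opposite strand, with 2085 and 2065 reads. Fen1 thus differed by far more reads than either neighbour, and the reads of all of these genes together gave a ratio of 0.87 (0.82 to 0.93). The libraries were strand-specific per the labels, but no source read for this work says whether the counting used strand. In the authors' deposited table, Fen1 had a p-value of 0.302.

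Pcna, the clamp itself (chromosome 2, 132249162 to 132253314, minus strand), had 9615 and 13502 reads, at a log2 ratio of 0.38 (0.34 to 0.42). Its level went from 124 to 170 RPKM, the highest of the 39 genes with BPA by either length, and over the longest transcript it was the highest in control too, at 196. A pseudogene copy, Pcna-ps2, had 468 and 629 reads, and the sum of both gave 0.38 as well. Lig1, the ligase that acts after FEN1, had 5726 and 6007 reads and lay at -0.04 (-0.09 to 0.01), or at 0.04 when libraries were scaled by their totals. Fen1 per read of Lig1 thus went from 0.279 to 0.878. The clamp loader subunits were neither 25% higher nor 20% lower, from Rfc4 at -0.16 to Rfc5 at 0.10. Of 22 further polymerase, clamp loader and lagging-strand factors, 3 were at least 25% higher and 1 at least 20% lower, with a median of -0.01 that became 0.07 by library totals. The highest was Pold4, the smallest subunit of polymerase delta, with 337 and 561 reads, and its log2 ratio was 0.62 (0.43 to 0.82). The others were Pole3 at 0.40 and Rnaseh2a, the catalytic subunit of RNase H2, at 0.33, which stood against the topoisomerase Top1 at -0.44 (-0.50 to -0.38).

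The subunits of RPA, which coats single-stranded DNA as an obligate trimer, lay on opposite sides. Rpa1 (chromosome 11, 75298166 to 75348324, minus strand) had 18438 reads in control against 14540 with BPA, a log2 ratio of -0.45 (-0.49 to -0.42). Rpa2 had 1978 and 2683 reads, at a log2 ratio of 0.33 (0.24 to 0.41). The reads of Rpa2 per read of Rpa1 were 0.107 in control and 0.185 with BPA, the largest change inside a complex among the 14 pairs compared except for Fen1 and Lig1, which act in sequence. The remaining subunit, Rpa3, was at 0.12 (-0.02 to 0.26).

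Genes of deoxynucleotide supply were lower in the BPA library, all 4 of them, with a median of -0.48, and 3 were at least 20% lower, or 2 by library totals. Tk1, the S phase thymidine kinase (ENSMUSG00000025574, chromosome 11, 117815526 to 117826092, minus strand), had 3620 reads in control against 2435 with BPA, a log2 ratio of -0.68 (-0.76 to -0.61). Rrm1, the large subunit of ribonucleotide reductase (chromosome 7, 102441695 to 102469771, plus strand), had 21964 and 15598 reads, and its log2 ratio was -0.61 (-0.64 to -0.58). The enzyme makes deoxynucleotides from ribonucleotides. Its partner Rrm2, the small subunit whose supply limits the enzyme outside S phase, had 12288 and 11907 reads and lay at -0.16 (-0.19 to -0.12), so that Rrm2 per read of Rrm1 went from 0.559 to 0.763. Tyms, which makes thymidylate, had 2737 and 2306 reads, at a log2 ratio of -0.36 (-0.44 to -0.28). All 4 stayed below 0 under each scaling tried. In RPKM over all exons, Rrm2 was the most abundant of the 39 genes in control at 137 and stood at 130 with BPA. Over the longest transcript it was at 173 and 164, below Pcna in both libraries and also below Mcm2 and Mcm7 with BPA. Over all exons Tk1 went from 21.6 to 14.2.

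The wider set of nucleotide enzymes leaned the same way by less, in sign and median. Of 32, 21 were below 0, where 48.1% of all genes were, and the median was -0.13. At least 20% lower were 5 and at least 25% higher 4, where 19.2% and 23.8% of all genes were (13.7% and 16.7% with at least 200 reads). By library totals these 32 genes gave 3 and 5, where 15.7% and 28.9% of all genes passed. The lowest was Samhd1, which degrades deoxynucleotides, with 7130 and 4498 reads, and its log2 ratio was -0.78 (-0.83 to -0.72). Cad, the first enzymes of pyrimidine synthesis on a single chain, had 10492 and 8094 reads and -0.49 (-0.53 to -0.44), Ctps was at -0.41, the purine enzyme Paics at -0.40 and the ribose phosphate enzyme Prps2 at -0.33. The highest was Impdh1, of guanine nucleotide synthesis, with 3211 and 4790 reads and 0.47 (0.40 to 0.53). The other 3 higher genes serve deoxynucleotide supply outside S phase or in mitochondria. They were Tk2 at 0.45, Dguok at 0.38 and Rrm2b, the p53-induced small subunit of ribonucleotide reductase, at 0.35 from 731 and 1008 reads. Dut, which makes the precursor of thymidylate, was at 0.15 and Dtymk, which phosphorylates thymidylate, at -0.12.

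**Figure D2:**
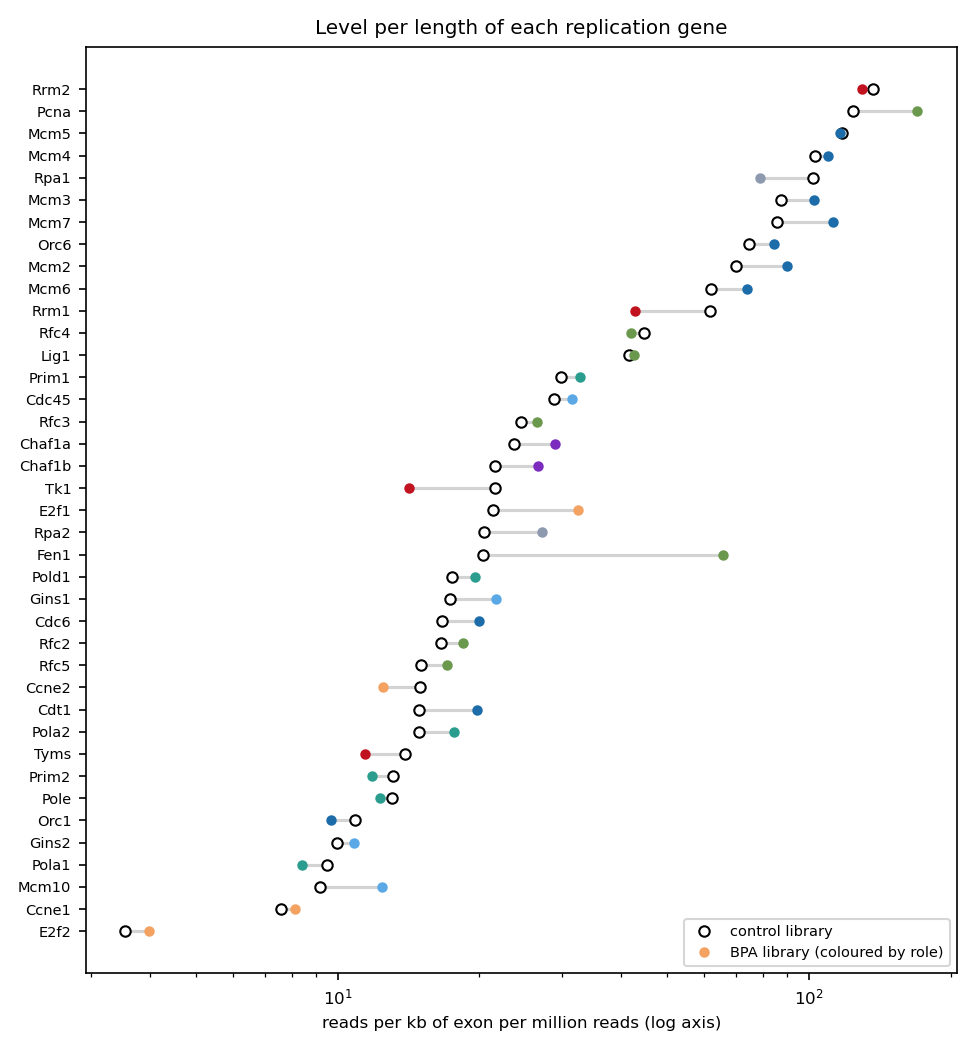
The level of each of the 39 genes in RPKM (x axis, log scale) is shown for the control library (open circles) and the BPA library (filled, coloured by role as in the plot of ratios). E2f2 was the lowest in both libraries, at 3.54 and 3.98, the highest was Rrm2 in control at 137 and Pcna with BPA at 170, and Fen1 made the longest move.

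The E2F and cyclin E genes held members on both sides. E2f1, an activator of S phase genes (chromosome 2, 154559407 to 154569892, minus strand), had 2178 and 3383 reads, at a log2 ratio of 0.52 (0.45 to 0.60), second to Fen1 among the 39. E2f2, with 559 and 643 reads, was the lowest of the 39 in RPKM, at 3.54 and 3.98, and its ratio of 0.09 had an interval of -0.08 to 0.26. Ccne1, the E-type cyclin that drives entry into S phase with CDK2, was at 0.02 (-0.14 to 0.17). The related Ccne2 had 1686 and 1443 reads and was at -0.34 (-0.44 to -0.23). Ints8, which shares 17.4% of the Ccne2 exon length on the opposite strand, had 2451 and 2033 reads.

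Among 23 further regulators of E2F and the G1 to S step, 5 were at least 25% higher and 2 at least 20% lower, with a median of -0.05 that became 0.025 by library totals. Cdkn1a, the p21 inhibitor of cyclin-dependent kinases, had 1058 and 3255 reads, and its log2 ratio was 1.51 (1.41 to 1.61). Skp2, the ubiquitin ligase subunit that marks p27 and p21 for breakdown, had 1976 and 796 reads and -1.42 (-1.54 to -1.30). These were the 2-fold genes of the list, 1 in each direction, and the mRNA of p27 itself, Cdkn1b, was at -0.23. The repressor E2f7 was at -0.41 from 2735 and 2218 reads, E2f8 at 0.22 from 655 and 825 and E2f6 at 0.41 from 671 and 965. Rb1, Rbl1 and Rbl2, the pocket proteins, ran from -0.03 to 0.18 with intervals that included equality. Of the E2F partners, Tfdp1 was at -0.01 and Tfdp2 at 0.38. Lin37 and Lin52 of the DREAM complex were at 0.48 and 0.33 from 635 and 651 reads in both libraries together. Lin54 and Lin9 of that complex were at 0.19 and -0.15 from 3923 and 2384.

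The subunits of chromatin assembly factor 1, which places new histones behind the fork, had nearly equal ratios. Chaf1a had 6783 and 8458 reads, at a log2 ratio of 0.21 (0.16 to 0.25), and Chaf1b had 3261 and 4117 reads and 0.22 (0.16 to 0.29). Their read ratio was 0.481 and 0.487 in the libraries, a log2 change of 0.02 with an interval of -0.06 to 0.10. Of the Chaf1a exon length, 52.5% is shared with Ubxn6 on the opposite strand, which had 2343 and 3217 reads. Of 14 further replication-coupled chromatin factors none was at least 25% higher, or 1 by library totals, and none at least 20% lower, with Esco2, which acetylates cohesin, highest at 0.29 and the FACT subunit Supt16 lowest at -0.26. Of 21 genes of fork protection and the replication checkpoint 1 was at least 25% higher, or 4 by library totals, and none was at least 20% lower. It was Rad1, a subunit of the 9-1-1 clamp, with 304 and 578 reads, and its log2 ratio was 0.81 (0.61 to 1.02). Its partners Rad9a and Hus1 were at 0.23 and -0.14, and the lowest of the list was Etaa1, an activator of the ATR kinase, at -0.31. The kinases Atr at -0.08 and Chek1 at -0.03 had intervals that included equality.

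**Figure D3:**
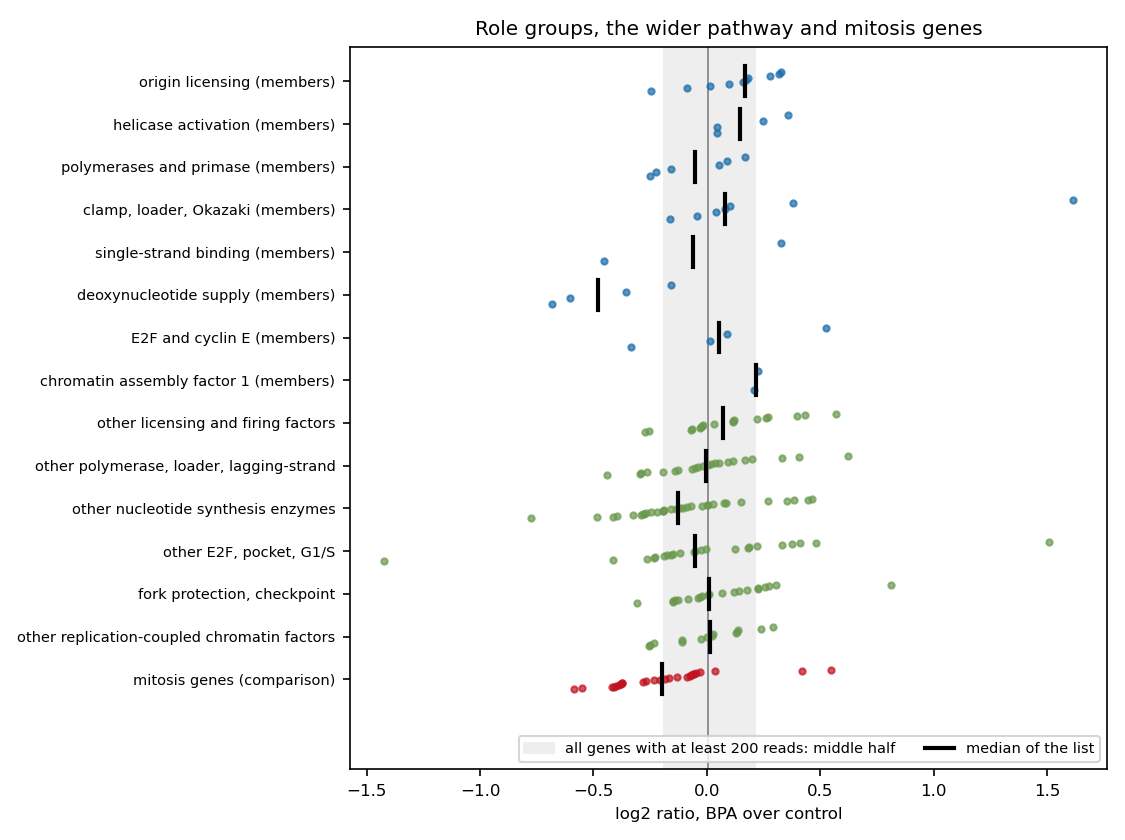
Each point is the log2 ratio of 1 gene (x axis, BPA over control) in the role groups (blue), the wider lists (green) and mitosis genes (red), with black bars for medians and a grey band for the middle 50% of genes with at least 200 reads. The band is the spread of single genes and not of medians. The medians run from -0.48 for deoxynucleotide supply to 0.22 for chromatin assembly factor 1.

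Mitosis genes, which follow the replication genes in the cell cycle, gave a different picture. Of 26, 3 were above 0 and 23 below, their median was -0.20, and 2 were at least 25% higher and 9 at least 20% lower. With scaling by library totals, 9 were above 0 and 17 below, 5 were at least 20% lower and the median was -0.12. Among the 39 replication genes, 26 were above 0 and 13 below, or 27 and 12 by library totals, where 60.1% and 39.9% of all genes lay above and below 0. With 1 library per group the difference between the lists was not tested.

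Mcm7 also carries miRNAs. The arms of Mir106b, Mir93 and Mir25 lie within it on the same strand, between 138165332 and 138165807 on chromosome 5 (GRCm38), and the small RNA libraries from the same RNA samples measured them. The mature sequences of 4 of the 6 arms, from RefSeq, are printed with the seed (bases 2 to 8) in capitals, because miR-106b-5p and miR-93-5p share a seed and the other arms shown had the most reads.
mmu-miR-106b-5p: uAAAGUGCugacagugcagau
mmu-miR-93-5p: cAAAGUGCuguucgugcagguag
mmu-miR-25-3p: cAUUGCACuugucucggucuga
mmu-miR-106b-3p: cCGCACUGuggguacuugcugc

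All 6 arms took a larger share of the BPA library, and 5 of the 6 were above 0 under either scaling. The arm miR-25-3p had 11738 reads in control and 55933 with BPA, the highest count of the 6 arms with BPA. Its log2 ratio was 2.44 (2.41 to 2.47) by share of the library and 0.76 (0.73 to 0.79) after TMM scaling (a trimmed mean of the ratios, which leaves out the most extreme). The arm miR-93-5p had 642 and 3457 reads, with 2.61 and 0.93, and miR-106b-5p had 275 and 1115 reads, with 2.21 and 0.52. The opposite arm of that hairpin, miR-106b-3p, had 13150 and 18641 reads and its direction depended on scaling, at 0.69 by share and -0.99 by TMM. The passenger arms miR-25-5p and miR-93-3p had 27 and 122 and 2 and 27 reads. By share the median of the 464 small RNAs with at least 10 reads was 1.70, 78% were higher and 2.8% lower by at least 2-fold. By TMM the median was 0.02 and the shares were 12.3% and 15.7%. A single miRNA, miR-148a-3p, took up 70.5% of the control library but 35.2% of the BPA library, and all shares in a library sum to the whole.

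**Figure D4:**
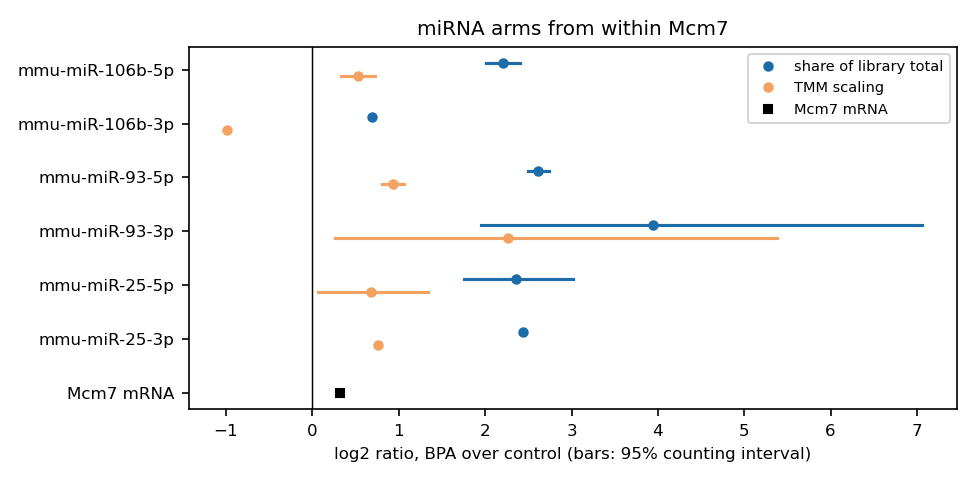
The log2 ratio (x axis, BPA over control) of the 6 miRNA arms from within Mcm7 is drawn by share of the library total and after TMM scaling, with 95% counting intervals, beside Mcm7 mRNA. Scaling moved every arm by 1.68, and miR-106b-3p changed side.

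Circular RNAs from these genes rested on few events, and their rate per gene was not compared with that of other genes. Of 9158 circRNAs, 39 came from 19 of the 39 genes, 36 of them exonic and 0 with a circBase identifier, and, counting a step of 2 in the authors' value as 1 back-splice event, they gave 43 of 12909 events in control and 47 of 17586 with BPA. These are shares of 0.333% (exact 95% interval 0.241% to 0.448%) and 0.267% (0.196% to 0.355%), whose ratio of -0.32 on the log2 scale had an interval of -0.95 to 0.31. The gene with the most events was Prim2, with 11 and 11 over 5 circRNAs, of which the most frequent spanned chromosome 1 from 33512016 to 33533363 with 5 and 6 events. Mcm6 had 4 and 9. Among hosts lower as mRNA, which include Prim2, Pola1 had 3 and 8 events, Rpa1 3 and 6, Rrm2 0 and 2 and Mcm5 0 and 1. Ccne2 had 3 and 2, Pole 2 and 0 and Orc1 1 and 0. Rrm1 had 8 events in control over 3 circRNAs and 0 of 17586 with BPA, which allows up to 0.0171% of events. These counts are too small to give a direction for the hosts as a set.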

How the data were processed

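Per the submitters' processing notes, STAR and StringTie were named for mRNA, STAR for circRNA and Bowtie 1.1.0 for miRNA, on GRCm38 and mm10. No source read for this work states the counters, annotation or filters. The authors deposited mRNA and circRNA values as log2 of a value plus 1. Undoing the log gave whole multiples of a step (1.03943 control, 0.962066 BPA; tolerance 0.001) for 100% of 22127 genes per library, so reads were recovered by division. The circRNA value was taken as 2 per back-splice event. The deposited miRNA values were read counts. Deposited p-values are quoted as the authors' own.

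With 1 library per group no test was made, and the design's ratio was kept. This was the log2 ratio of the authors' normalised values with a pseudocount of 1. Genes had at least 10 reads in both libraries together, and thresholds were 25% higher, 20% lower and 2-fold. Intervals were exact conditional binomial 95% intervals (SciPy 1.17.1). They were run on simulated Poisson counts, the error they assume, which checks the computation only. Pair changes used the conditional odds ratio. TMM came from edgeR 4.0.16 in R 4.3.3. Exon lengths, coordinates and overlaps came from GENCODE M21 (GRCm38). Alternatives were TMM, library totals, pseudocounts of 0.5 and 5, a filter at 200 reads and no filter. Members and lists were chosen with earlier results of these data known. Genes named were members past 25% higher or 20% lower, the ends of each role group, and in wider lists genes past 2-fold and the ends, with others named after their values were seen. The Mcm7 miRNAs, the sums over genes that share sequence and the median without Fen1 were added after seeing the data.

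Markers of 5 other cell classes were summed as CPM. Their control and BPA levels were 2.23 and 2.87 (germ cell), 73.8 and 72.2 (Sertoli), 55.7 and 70.5 (Leydig), 5812 and 3139 (peritubular and fibroblast) and 4.70 and 7.80 (leukocyte).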

Additional observations from a re-analysis of the deposited data

How the results depend on the processing

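No paired analysis was possible because each group had 1 library, and no replicate could be left out. Of the 39 genes, 38 kept their sign under every scaling and pseudocount tried and Lig1 did not (-0.05 by TMM, 0.04 by library totals). Pseudocounts moved no member by more than 0.0023, TMM moved all by about -0.01 and library totals by 0.08. By library totals the medians were 0.16 for the 39 genes, 0.24 for licensing, 0.027 for polymerases and primase, 0.16 for the clamp group, 0.015 for RPA, -0.40 for deoxynucleotide supply, 0.29 for chromatin assembly factor 1, -0.050 for other nucleotide enzymes and 0.090 for other chromatin factors, and 3 members in place of 5 were at least 20% lower, while the median of all genes was 0.09 in place of 0.02. By TMM, 4 members in place of 6 were at least 25% higher, where 23.1% of all genes passed by that scaling. With the longest transcript as length, the median level of the members was 32.4 RPKM in control and 37.1 with BPA in place of 21.4 and 26.6. The reads of Fen1, Gm10143 and Tmem258 together gave 0.87, against 1.61 for Fen1 alone. To that sum Tmem258, which shares 5.37% of the Fen1 exon length, gave 2085 and 2065 reads, and Gm10143 124 and 191. By TMM, miR-106b-3p was at -0.99. Each member had at least 1202 mRNA reads in both libraries together, yet the counting intervals of 8 of the 39 included equality. Depth did limit the circRNA values, which rest on few events per gene.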
